A study of Mus musculus with 4 samples.

Results

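The mitochondrial genome of the mouse carries 37 genes, of which 13 encode proteins, 2 encode ribosomal RNAs (rRNAs) and 22 encode transfer RNAs (tRNAs). Their levels were described in cells that the study names FACS-enriched interneurons. These came from WT embryos and from embryos in which *Dnmt1* was deleted in *Hmx3*-expressing cells. The genes were chosen by the prefix mt- of their symbol in GENCODE M21 (GRCm38), among 55573 counted genes. The cells expressed tdTomato under control of Cre, which was driven by *Hmx3*, and were sorted at embryonic day (E) 16 from dissociated tissue, which GEO's labels give as the basal telencephalon and the methods of the study as the preoptic area (POA). WT cells were *Hmx3-Cre/tdTomato/Dnmt1* wild type, and KO cells were *Hmx3-Cre/tdTomato/Dnmt1 loxP2*, in which Cre removes exons 4 and 5 of *Dnmt1* and leaves a null allele. Both groups carried the Cre and the reporter. Each group had 2 libraries, from cells pooled over 12 WT and 6 KO embryos. GEO's labels call the libraries biological replicates, whereas the methods of the study describe technical duplicates of pooled samples, so that the spread between libraries may be technical. The labels name total RNA as the molecule and mRNA in the description, and whether RNA was selected by its poly(A) tail is not given in the sources used here.

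Mitochondrial DNA is transcribed from both strands into long precursors, and the tRNAs lying between the mRNAs and rRNAs are cut out of them. The mRNAs encode core subunits of the respiratory chain and of ATP synthase, while all other subunits, the transcription machinery and the proteins of the mitochondrial ribosome come from nuclear genes. Of the 37 genes, 28 are encoded in the sense of the plus strand of the reference and 9 in the sense of the minus strand, namely *mt-Nd6* and 8 tRNAs. Segments of mitochondrial DNA have also been copied into nuclear chromosomes, and a read from a gene with such a copy can align to both places.

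Several mitochondrial mRNAs without any counts here have a near-identical nuclear copy. To show how alike such copies are, 3 pairs of a mitochondrial gene and its annotated nuclear copy are given, each over 90 bases from the GENCODE M21 transcripts (GRCm38). They run 5′ to 3′ in the sense of the mitochondrial gene, and capitals mark bases that differ within a pair. The first pair lies at positions 1 to 90 of *mt-Nd4l*, a subunit gene of complex I, and is identical. The second pair lies at positions 1 to 90 of *mt-Nd3*, also of complex I, and differs by T3C, with positions counted from the first base of the gene and the mitochondrial base first. The third pair lies at positions 772 to 861 of *mt-Nd2*, the window of that match with the most mismatches, and differs at 6 bases.
mt-Nd4l: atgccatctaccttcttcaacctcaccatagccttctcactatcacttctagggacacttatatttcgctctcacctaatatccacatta
Gm10222: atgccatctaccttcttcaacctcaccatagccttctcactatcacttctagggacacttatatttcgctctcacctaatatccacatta
mt-Nd3: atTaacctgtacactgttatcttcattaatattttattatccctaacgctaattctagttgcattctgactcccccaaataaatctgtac
Gm28438: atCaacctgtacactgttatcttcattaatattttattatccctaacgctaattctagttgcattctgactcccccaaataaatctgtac
mt-Nd2: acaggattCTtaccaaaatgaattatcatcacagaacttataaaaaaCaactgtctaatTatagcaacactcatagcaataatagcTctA
Gm13339: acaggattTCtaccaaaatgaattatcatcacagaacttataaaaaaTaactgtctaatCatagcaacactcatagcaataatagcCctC

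The copies *Gm10222* and *Gm28438* belong to a stretch on chromosome 1. At chr1:24611535-24616197, on the minus strand, 7 annotated pseudogenes (*Gm29216*, *Gm28661*, *Gm10925*, *Gm28437*, *Gm28438*, *Gm10222* and *Gm28439*) matched mitochondrial genes at 99% identity or more. They followed each other in the order of the mitochondrial genome and corresponded to its bases 6390 to 11042, a length of 4653 bases. *Gm28661* was identical to *mt-Co2* over 681 bases, *Gm10925* to *mt-Atp6* over 678 bases and *Gm28437* to *mt-Co3* over 783 bases. *Gm28439* was identical to the first 876 bases of *mt-Nd4*, and *Gm29216* matched the last 483 bases of *mt-Co1* at 99.8%. *mt-Atp8* lies within the stretch but has no annotated copy of its own.

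The mitochondrial genes lying wholly inside this stretch had no counts. These were 6 mRNA genes, namely *mt-Co2*, *mt-Atp8*, *mt-Atp6*, *mt-Co3*, *mt-Nd3* and *mt-Nd4l*, and 5 tRNA genes, and all 11 were at 0 in all 4 libraries. *mt-Co1* and *mt-Nd4*, which reach across its ends, had counts. Of the 24 genes outside it, 19 had counts in at least 1 library, and the 5 without were tRNAs. The 7 nuclear copies together held 5, 1, 4 and 0 counts in WT 1, WT 2, KO 1 and KO 2. *mt-Co2* and *mt-Co3* encode core subunits of complex IV and *mt-Atp6* of ATP synthase. The nearest counted mRNAs on either side of them, *mt-Co1* and *mt-Nd4*, had at least 12674 and 1279 counts in each library. How reads with several equally good alignments were treated is not given in the sources used here, so these 0s cannot be read as absence of the RNAs.

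Copies with more differences lie elsewhere. *Gm13339* on chromosome 2 matched 510 bases of *mt-Nd2* at 96.7% with 17 mismatches, and *Gm13340* beside it matched all 1545 bases of *mt-Co1* at 97.6%. *Gm13341* on chromosome 2 matched *mt-Co2* at 95.9%, and *Gm4076* on chromosome 13 matched 954 bases of *mt-Nd5* at 95.2%. These 4 copies together held 16, 13, 13 and 2 counts in WT 1, WT 2, KO 1 and KO 2. *mt-Nd2*, *mt-Nd5* and *mt-Co1* themselves had at least 775, 883 and 12674 counts in each library. Neither rRNA gene, and none of *mt-Nd1*, *mt-Nd6* and *mt-Cytb*, had an annotated nuclear match of at least 100 bases at 95% identity.

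**Figure D1:**
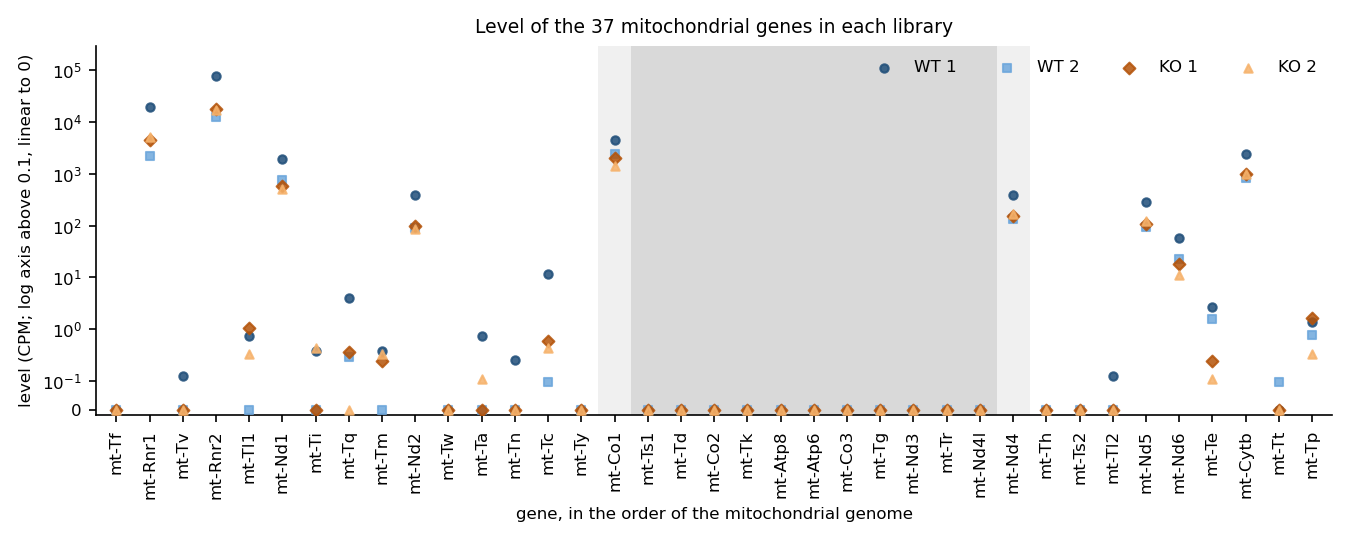
Level of each mitochondrial gene in CPM (counts relative to library size, after TMM scaling; log axis above 0.1, linear down to 0) in the 4 libraries, with the genes in the order of the mitochondrial genome; points are single libraries. Dark shading marks the 11 genes inside the stretch that is copied on chromosome 1, all at 0, and light shading marks *mt-Co1* and *mt-Nd4*, which reach across its ends and have counts.

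Library depth was alike, with 8075102 to 9995968 counts in total, and 3 counts corresponded to 0.294 to 0.372 CPM. *Dnmt1* had 3103 and 4557 counts in WT 1 and WT 2 and 2383 and 2552 in KO 1 and KO 2, which lay below both WT libraries (log2 fold change −0.56, SE 0.14, edgeR adjusted p = 0.0511). The WT pair differed more than the KO pair, with a chi-square per degree of freedom of 57.2 against 4.28, and WT 1 stood apart in its mitochondrial RNA. Results are therefore given with and without WT 1. Of the markers of the sorted population, all 9 were tested and 0 passed in edgeR, with 2 at an unadjusted p under 0.05 (22.7% of all tested genes) and 0 in DESeq2 or limma-voom, and *Hmx3* had 604 to 919 counts per library. Their fitted log2 fold changes were all below 0, with a median of −0.29. Of 6 markers of neurons in general, *Stmn2* was lower in KO (edgeR) and 5 had an unadjusted p under 0.05, all lower, with summed levels of 4878 to 5393 CPM in WT and 3597 to 3675 CPM in KO. All 10 astrocyte markers were higher in KO (edgeR, in which 7.90% of all tested genes changed), with summed levels of 251 to 270.5 CPM in WT and 3760 to 3954 CPM in KO, and all 6 mural cell markers were higher, with 52.8 to 60.8 CPM in WT and 375 to 376 CPM in KO. Of 9 markers of the oligodendrocyte lineage 5 were higher, with summed levels of 1349 to 1413 CPM in WT and 2046 to 2083 CPM in KO. Of 6 tested microglia markers 1, *Csf1r*, was higher in edgeR, while 2 were called in DESeq2 and 0 in limma-voom. Their summed levels were 26.6 to 30.4 CPM in WT and 51.5 to 58.4 CPM in KO. Of 5 tested erythroid markers 1, *Hbb-bs*, was lower, with 30.7 to 44.7 CPM in WT and 18.9 to 19.2 CPM in KO for the list. Of 4 tested choroid plexus markers *Ttr* was lower, with 47.4 to 62.8 CPM in WT and 6.3 to 8.81 CPM in KO for the list. Most of the WT sum was *Ttr*, with 40.8 and 55.3 CPM in WT 1 and WT 2 and 0.951 and 1.1 in KO 1 and KO 2. The other tested members were not called, with log2 fold changes of 0.60 (*Kcnj13*), 0.20 (*Kl*) and −1.004 (*Aqp1*). None of the 5 tested endothelial markers changed (16.4 to 17.5 CPM in WT and 16.3 to 18.6 CPM in KO), with 3 at an unadjusted p under 0.05 and 0 in DESeq2 or limma-voom. *Hbb-y*, an erythroid marker, was the one marker at 0 in every library. Without WT 1, in a fit in which 7.09% of all tested genes were lower and 14.9% higher, 3 neuron and 4 erythroid markers were lower, 6 oligodendrocyte lineage and 2 microglia markers were higher, and of the endothelial markers *Tek* was higher and *Cldn5* lower (edgeR), while the counts for the sorted population, astrocytes, mural cells and choroid plexus were as with all libraries. The part of these cell types in the mitochondrial values below was not tested.

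Mitochondrial RNA of all types took 9.55% of the counts in WT 1, 1.95% in WT 2, 2.73% in KO 1 and 2.65% in KO 2. By the Wilson method the 95% intervals of these shares reached at most 0.0193 percentage points to either side, and they cover counting error only. WT 1 was thus far above the other 3 libraries, and WT 2 was the lowest. In bulk samples a lower share of cells rich in mitochondria cannot be told apart from less mitochondrial RNA per cell.

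The 2 rRNAs made up most of this RNA. They took 8.66% of the counts in WT 1, 1.51% in WT 2, 2.32% in KO 1 and 2.31% in KO 2, so that KO lay between WT 2 and WT 1 (exact permutation test, two-sided, p = 1). The 13 mRNA genes took 0.893% in WT 1, 0.436% in WT 2, 0.41% in KO 1 and 0.338% in KO 2. For the mRNAs each KO library was under each WT library, with p = 0.333 in the exact permutation test, the smallest value that 2 libraries per group allow. The tRNA genes took 0.002% in WT 1, 0.00029% in WT 2, 0.000433% in KO 1 and 0.000216% in KO 2, and the groups overlapped (exact permutation p = 0.667).

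**Figure D2:**
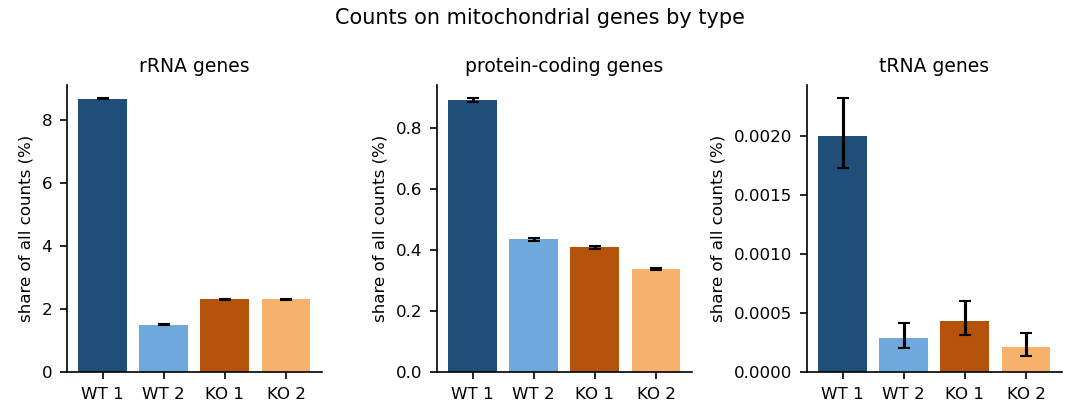
Share of all counts (%) on mitochondrial rRNA, protein-coding and tRNA genes, one bar per library; error bars are 95% Wilson intervals and cover counting error only. WT 1 is highest in each panel, and for the protein-coding genes KO 1 (0.41%) and KO 2 (0.338%) lie below WT 2 (0.436%).

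The balance between the types of RNA differed between libraries. The ratio of rRNA to mRNA counts was 9.7 in WT 1, 3.47 in WT 2, 5.65 in KO 1 and 6.84 in KO 2, and again the KO libraries fell between the WT libraries (exact permutation p = 1). The ratio of *mt-Rnr2*, the rRNA of the large ribosomal subunit, to *mt-Rnr1*, that of the small subunit, was 3.94, 5.78, 3.98 and 3.32 in the same order. The elevation of WT 1 was thus uneven. Its CPM exceeded that of WT 2 by 8.91 times for *mt-Rnr1* and 6.08 times for *mt-Rnr2*, but by 1.9 times (*mt-Co1*) to 4.24 times (*mt-Nd2*) for the 7 mRNAs with counts. These mRNAs were highest in WT 1 without exception.

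Per kilobase of gene length, the genes kept a similar order in every library. In WT 2, *mt-Rnr2* had 7981 CPM per kilobase and *mt-Rnr1* 2289 CPM per kilobase. *mt-Co1*, the catalytic subunit of complex IV, followed with 1528 CPM per kilobase, then *mt-Nd1* of complex I with 784 and *mt-Cytb* of complex III with 710. The other complex I mRNAs were lower, with 98.3 CPM per kilobase for *mt-Nd4*, 88.1 for *mt-Nd2*, 52.2 for *mt-Nd5* and 44 for *mt-Nd6*. *mt-Nd1* and *mt-Cytb* changed places in the other 3 libraries, and *mt-Nd2* lay above *mt-Nd4* in WT 1. Over all 4 libraries the ranges of neighbours in this order overlapped, with the exception of the step from *mt-Cytb* (710 to 2086 CPM per kilobase) to *mt-Nd4* (98.3 to 281). Counted over the bases that the chromosome 1 copy does not hold, *mt-Co1* had 2223 and *mt-Nd4* 270 CPM per kilobase in WT 2, over 1062 and 502 bases.

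The comparison asked whether mitochondrial transcripts differed between the sorted KO and WT cells, in which astrocyte and mural cell markers differed as well. Of the 37 genes, 11 passed the expression filter and were tested (7 mRNAs, 2 rRNAs and 2 tRNAs), and 26 were not tested, 16 of them at 0 in every library. With all 4 libraries, 1 of the 11 changed at an adjusted p under 0.05 in edgeR, where 7.90% of the 16832 tested genes did so. This gene, *mt-Te*, was lower in KO, a direction called for 0.570% of all tested genes. It passed the expression filter through its WT counts alone, and with KO counts as low as these it could only be tested if lower in KO. None of the 11 was higher in KO, in edgeR, DESeq2 or limma-voom, and of the 5 with an unadjusted p under 0.05 in edgeR none was higher. An unadjusted p under 0.05 was found in 22.7% of all tested genes, and with a lower level in KO in 8.01%. All 11 fitted log2 fold changes were below 0, as were 52.4% over all tested genes, and 10 of the 11 genes had their highest level in WT 1. In 4 of them, *mt-Nd1*, *mt-Co1*, *mt-Nd6* and *mt-Te*, the CPM of each KO library was under that of each WT library, which was the case for 25.2% of all tested genes.

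Without WT 1 the picture changed. In that fit, whose spread comes from the KO pair alone and in which WT 2 is assumed to vary likewise, 5 of the 11 genes passed, where 22.0% of all tested genes did so. *mt-Rnr1* and *mt-Rnr2* were higher in KO, as were 14.9% of all tested genes, and *mt-Nd1*, *mt-Co1* and *mt-Te* were lower, as were 7.09%. The median log2 fold change of the 7 mRNAs was −1.004 with all libraries, beside −0.03 over all tested genes, and −0.0040 without WT 1, beside 0.02. Without WT 2, 10 of the 11 were lower, as were 12.7% of all tested genes. Without KO 1 or without KO 2 none of the 11 passed in edgeR, where 4.31% and 5.06% of all tested genes did so.

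**Figure D3:**
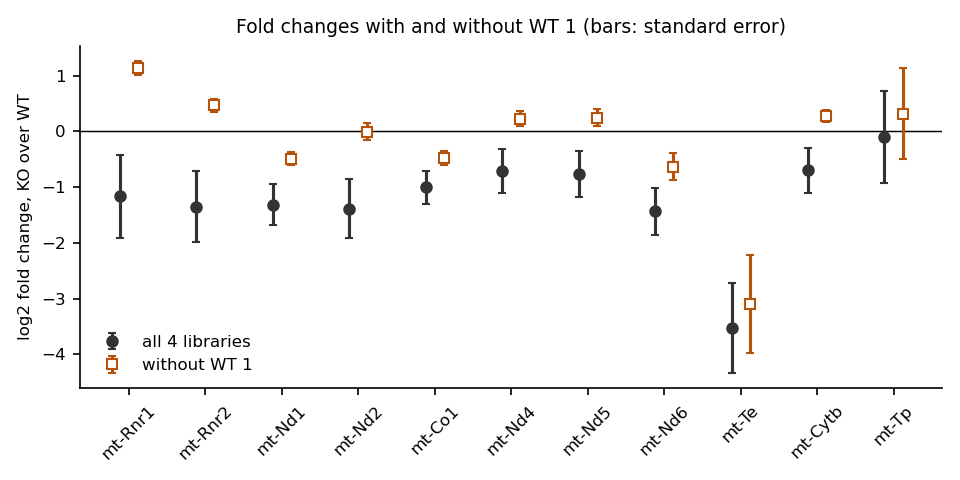
Log2 fold change of KO over WT in edgeR for the 11 tested mitochondrial genes, in the order of the genome, with all 4 libraries (filled circles) and without WT 1 (open squares); bars are standard errors. With all libraries every point lies below 0, whereas without WT 1 *mt-Rnr1* stands at 1.14 and *mt-Rnr2* at 0.47, and *mt-Nd1*, *mt-Co1*, *mt-Nd6* and *mt-Te* remain below 0.

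The rRNAs of the mitochondrial ribosome depended most on WT 1. *mt-Rnr1* (bases 70 to 1024 of the mitochondrial genome) had 19470 CPM in WT 1, 2186 in WT 2, 4460 in KO 1 and 5195 in KO 2. *mt-Rnr2* (bases 1094 to 2675) had 76710 CPM in WT 1, 12630 in WT 2, 17770 in KO 1 and 17260 in KO 2. For both, the KO libraries were close to each other and lay above WT 2 and below WT 1. The log2 fold change of *mt-Rnr1* was −1.17 (SE 0.75, edgeR adjusted p = 0.396) with all libraries and 1.14 (adjusted p = 2.34e-10) without WT 1. That of *mt-Rnr2* was −1.35 (SE 0.64, adjusted p = 0.251) and 0.47 (adjusted p = 0.00224). The direction of both thus rested on 1 library. Over all alternatives the adjusted p ran from 1.24e-125 to 0.794 for *mt-Rnr1* and from 5.78e-195 to 0.541 for *mt-Rnr2*, the lowest without WT 2. Without a filter, and with all libraries, both were called lower in KO (1.755e-19 and 1.066e-37).

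Among the complex I mRNAs, *mt-Nd1* and *mt-Nd6* were lower in both KO libraries than in both WT libraries. *mt-Nd1* (bases 2751 to 3707) had 15472 counts in WT 1, 7660 in WT 2, 4779 in KO 1 and 4569 in KO 2. The mean of the WT libraries was 1336 CPM (SD 827, n = 2), and that of the KO libraries 536 CPM (SD 45.9, n = 2). The WT libraries differed from each other more than WT 2 differed from KO. The log2 fold change was −1.32 (SE 0.37, edgeR adjusted p = 0.0727), and −0.49 (adjusted p = 0.00108) without WT 1, while over all alternatives the adjusted p ran up to 0.212 in DESeq2. With all libraries it passed under upper quartile scaling (adjusted p = 0.0482), with library size only (0.0103) and without a filter (7.69e-16).

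*mt-Nd6*, the single mRNA encoded on the minus strand (bases 13552 to 14070), had 463 counts in WT 1, 233 in WT 2, 154 in KO 1 and 103 in KO 2. This came to a mean of 40.2 CPM over WT (SD 24.5, n = 2) and 14.8 CPM over KO (SD 4.93, n = 2). Each KO library was below each WT library, by little between WT 2 (22.8 CPM) and KO 1 (18.3 CPM). The log2 fold change was −1.43 (SE 0.42, edgeR adjusted p = 0.0867), and −0.63 (adjusted p = 0.0549) without WT 1. DESeq2 called it, with an adjusted p of 0.00342, as the one mitochondrial gene past the threshold there. With library size only its adjusted p was 0.0198 and without a filter 2.94e-08, and over all alternatives the adjusted p ran up to 0.145.

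The remaining complex I mRNAs overlapped between the groups. *mt-Nd2* had 388 CPM in WT 1, 91.4 in WT 2, 97.7 in KO 1 and 85.4 in KO 2. *mt-Nd4* had 387, 136, 152 and 166 CPM, and *mt-Nd5* 289, 95.2, 105 and 121 CPM in the same order. Outside WT 1 the levels of *mt-Nd2* lay within a narrow range, and those of *mt-Nd4* and *mt-Nd5* were higher in KO 1 and KO 2 than in WT 2. For *mt-Nd2* the fitted log2 fold change was −1.39 (SE 0.53, edgeR adjusted p = 0.172) with all libraries and −0.0040 without WT 1 (adjusted p = 0.989). For *mt-Nd4* and *mt-Nd5* it was −0.71 (SE 0.40) and −0.77 (SE 0.42) with all libraries, and 0.23 and 0.24 without WT 1, with adjusted p-values of 0.33, 0.321, 0.244 and 0.266. Over all alternatives they ran from 4.33e-20 to 0.662 and from 8.85e-21 to 0.653, and for *mt-Nd2* from 5.44e-50 to 0.989, the lowest again without WT 2. Without a filter, and with all libraries, all 3 were called lower in KO, with adjusted p-values of 1.028e-13 for *mt-Nd2*, 0.000579 for *mt-Nd4* and 0.000268 for *mt-Nd5*.

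*mt-Co1*, which encodes the subunit of complex IV where oxygen is reduced, was the most abundant mitochondrial mRNA counted. It (bases 5328 to 6872) had 36196 counts in WT 1, 24100 in WT 2, 17010 in KO 1 and 12674 in KO 2. Scaled to CPM, WT averaged 3427 (SD 1507, n = 2) and KO 1709 (SD 443, n = 2). The KO libraries were the lowest, with KO 1 (2022 CPM) near WT 2 (2361 CPM). On the log2 scale the fold change was −1.004 (SE 0.30, edgeR adjusted p = 0.0917), and −0.47 (adjusted p = 0.00521) without WT 1, while over all alternatives the adjusted p ran up to 0.339 without KO 2. With all libraries it passed with library size only in place of TMM (adjusted p = 0.0265) and without a filter (2.695e-11).

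*mt-Cytb* (bases 14145 to 15288), the mRNA of the cytochrome b subunit of complex III, behaved otherwise. It had 2386 CPM in WT 1, 812 in WT 2, 972.5 in KO 1 and 1000 CPM in KO 2. KO 1 and KO 2 lay above WT 2 and far below WT 1, as they did for the rRNAs. Its log2 fold change was −0.70 (SE 0.40, edgeR adjusted p = 0.349) with all libraries and 0.28 (adjusted p = 0.0743) without WT 1, and over all alternatives the adjusted p ran from 9.58e-32 (without WT 2) to 0.683. Without a filter, and with all libraries, it was called lower in KO (8.2e-05).

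The make-up of the counted mRNAs does not depend on the size of the library. For 3 of the 7 mRNAs the shares did not overlap between the groups. Of all tested genes, 53.5% had CPM values without overlap in one direction or the other, which is a different measure. The shares add up to the whole, so that they are not independent of each other. *mt-Nd1* made up 19.4% of the mRNA counts in WT 1, 17.6% in WT 2, 14.4% in KO 1 and 15.3% in KO 2. *mt-Nd6* made up 0.579%, 0.535%, 0.465% and 0.345% in the same order, and *mt-Cytb* 24.1%, 19%, 24.7% and 30.5%. The share of *mt-Nd1* and *mt-Nd6* was lower in KO and that of *mt-Cytb* higher, each with an exact permutation p of 0.333, the smallest possible. KO 1 exceeded WT 1 by little for *mt-Cytb*. *mt-Co1* took the largest share, with 45.3%, 55.3%, 51.4% and 42.5%, and overlapped, as did *mt-Nd2*, *mt-Nd4* and *mt-Nd5*. The ratio of *mt-Nd1* to *mt-Cytb* counts, 0.805 in WT 1, 0.924 in WT 2, 0.584 in KO 1 and 0.503 in KO 2, follows from these shares, and its p-value would add nothing to theirs. That of *mt-Co1* to *mt-Cytb* overlapped, with 1.88, 2.91, 2.08 and 1.4 in the same order.

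**Figure D4:**
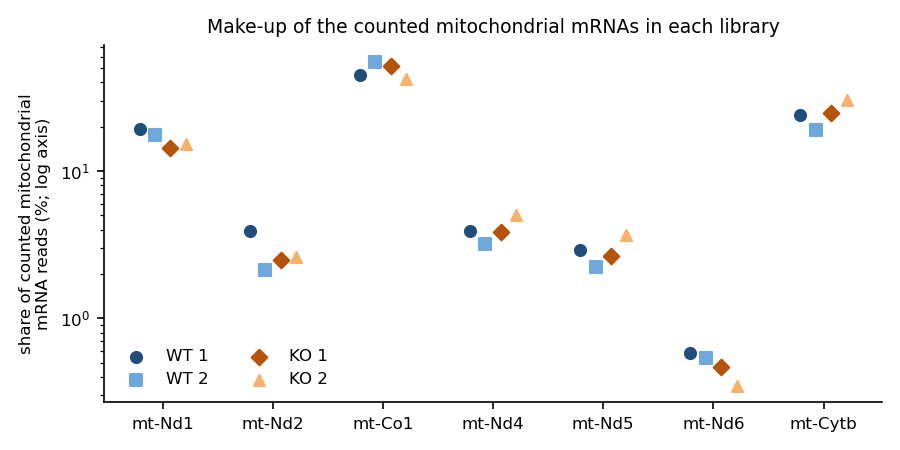
Share of the counted mitochondrial mRNA reads (%; log axis) taken by each of the 7 mRNAs with counts, one point per library. For *mt-Nd1* and *mt-Nd6* both KO points lie below both WT points, for *mt-Cytb* (24.7% and 30.5% in KO) both lie above, and the others overlap.

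The tRNA genes had few counts, and 12 of 22 had any. Their whole sum was 179 counts in WT 1, 29 in WT 2, 35 in KO 1 and 19 in KO 2. More than any other, *mt-Tc*, the cysteine tRNA, set WT 1 apart, with 92 counts there and 1, 5 and 4 in WT 2, KO 1 and KO 2. *mt-Tq*, the glutamine tRNA, had 32, 3, 3 and 0 counts. Both are encoded on the minus strand. *mt-Tl1* had 6, 0, 9 and 3 counts, and the tRNAs *mt-Tm*, *mt-Ti*, *mt-Ta*, *mt-Tn*, *mt-Tv*, *mt-Tl2* and *mt-Tt* had at most 6 counts in any library. A 0 allows up to 3 counts, so that differences among these were not detectable at this depth.

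The 2 tRNAs that were tested are shown whole, since one of them is the single mitochondrial gene called with all libraries. They are given 5′ to 3′ in their own sense, as DNA letters from the GENCODE M21 transcripts.
mt-Te: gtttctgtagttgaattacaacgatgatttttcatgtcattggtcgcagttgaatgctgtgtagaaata
mt-Tp: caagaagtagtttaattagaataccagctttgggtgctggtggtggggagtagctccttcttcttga

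*mt-Te*, the glutamate tRNA (69 bases, 14071 to 14139), adjoins *mt-Nd6* on the same strand. It had 22 counts in WT 1, 16 in WT 2, 2 in KO 1 and 1 in KO 2. Both KO libraries were below both WT libraries, and WT 1 was 1.74 times WT 2 in CPM. Summed per genotype, 38 counts in WT stood against 3 in KO, a ratio of 12.1 after scaling by TMM library sizes, with an exact 95% counting interval from 3.85 to 61.4. That interval covers counting error only and leaves out the spread between libraries. It uses the same counts by which the gene was called, so it adds no support to the call. The log2 fold change fitted by edgeR was −3.53 (SE 0.80, adjusted p = 0.0335), and with so few counts in KO it depends on the prior count. Its entry into the test rested on the WT libraries, and under a minimum of 10 counts in every library it was not tested. Without WT 1 the adjusted p was 0.0082 and without WT 2 7.17e-05. The call was lost without KO 1 (log2 fold change −4.12, adjusted p = 0.191), without KO 2 (−3.08, 0.298), in DESeq2 (−3.64, 0.0594) and in limma-voom (−3.22, 0.068).

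*mt-Tp*, the proline tRNA (67 bases, 15356 to 15422), had 11, 8, 14 and 3 counts in WT 1, WT 2, KO 1 and KO 2. The groups overlapped (log2 fold change −0.10, SE 0.82, edgeR adjusted p = 0.959). Together, the 9 genes in the sense of the minus strand took 0.784% of the mitochondrial mRNA and tRNA counts in WT 1, 0.599% in WT 2, 0.537% in KO 1 and 0.376% in KO 2. Most of these counts fell on *mt-Nd6*. Whether counting was strand-specific is not given in the sources used here, and without it, reads from precursors of the opposite strand cannot be told apart from reads of *mt-Nd6* and of these tRNAs.

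The nuclear genes of the same machinery were examined alongside. Of 74 tested nuclear genes for subunits of the complexes that also hold mitochondrially encoded subunits, 0 changed in edgeR, DESeq2 or limma-voom, and 4 had an unadjusted p under 0.05 in edgeR, all lower in KO. Over all tested genes, 8.01% had such a p and were lower. The median log2 fold change of the subunit genes was −0.17, with 60 of 74 below 0, beside 52.4% of all tested genes. The 77 tested proteins of the mitochondrial ribosome gave 0 calls with the same tools and 5 at an unadjusted p under 0.05, all lower, with a median of −0.21 and 67 of 77 below 0. The median over all tested genes was −0.03. Without WT 1, 24 of the 74 subunit genes and 11 of the 77 ribosomal protein genes were lower and 0 were higher in edgeR, beside the 7.09% of all tested genes that were lower in that fit, and the medians were −0.28 and −0.26. The summed level of the subunit genes was 4330 CPM in WT 1, 5276 in WT 2, 4344 in KO 1 and 4265 in KO 2. WT 1 lay with the KO libraries in this sum, and WT 2 was the highest, whereas in the mitochondrial mRNAs WT 1 was the highest.

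The lists closer to mitochondrial RNA itself gave no call either. In edgeR, DESeq2 and limma-voom, 0 of 19 tested genes of mitochondrial DNA maintenance and transcription changed, with 2 at an unadjusted p under 0.05 in edgeR and a median log2 fold change of −0.06. Among 33 genes of mitochondrial RNA processing and modification 0 changed, with 3 at an unadjusted p under 0.05 and a median of −0.16. Among 32 translation factors and aminoacyl-tRNA synthetases 0 changed, with 4 at an unadjusted p under 0.05 and a median of −0.06. Without WT 1, 2 genes of the first list were lower, 0 of the second list changed, and 3 of the third were lower and 1 higher in edgeR, where 7.09% of all tested genes were lower and 14.9% higher. The counts at an unadjusted p under 0.05 compare with 22.7% of all tested genes.

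**Figure D5:**
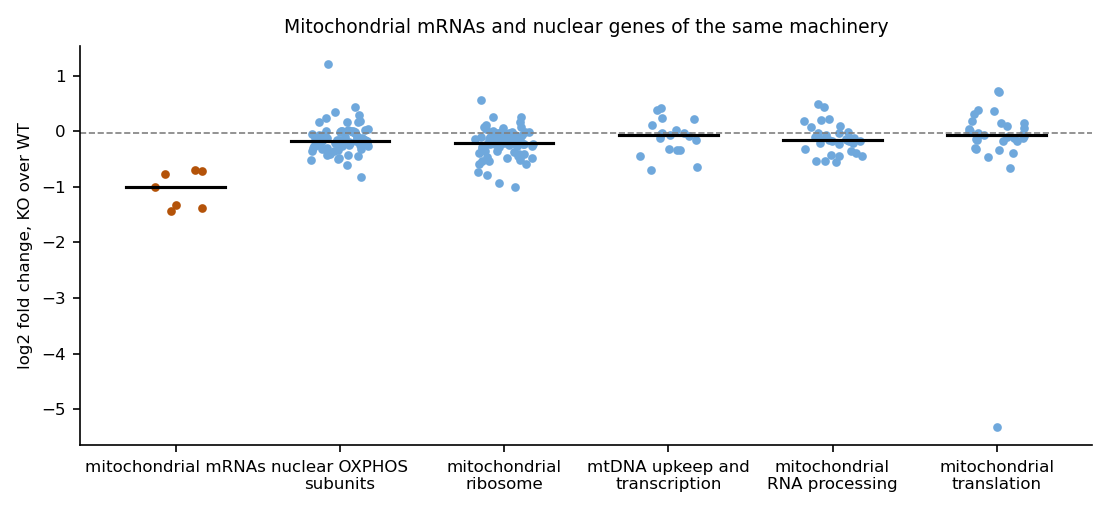
Log2 fold change of KO over WT (edgeR, all 4 libraries) for the 7 mitochondrial mRNAs and for nuclear genes of 5 lists; points are genes, black lines are medians and the dashed line is the median of all tested genes (−0.03). The mitochondrial mRNAs have a median of −1.004, the lists have medians between −0.21 and −0.06, and the lowest point, at −5.32, is *Lars2*, which is high in WT 1 alone.

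Other RNAs that mostly lack a poly(A) tail were compared with the mitochondrial rRNAs, of which 5 were tested and 0 changed in edgeR, DESeq2 or limma-voom, with 0 at an unadjusted p under 0.05. *Rn7sk*, which controls the release of RNA polymerase II, had 104993 counts in WT 1, 217799 in WT 2, 128081 in KO 1 and 134578 in KO 2. *Rpph1*, the RNA of nuclear RNase P, had 3461, 11646, 4575 and 7266 counts. *Gm26917* had 271280, 498168, 344573 and 417668 counts. These 3 were lowest in WT 1 and highest in WT 2, the opposite of the order of the mitochondrial rRNAs in the WT pair. The other 2, the Y RNAs *Rny1* and *Rny3*, were higher in WT 1 than in WT 2, by 20.3 and 25.5 times in CPM, as the mitochondrial rRNAs were. *Rny1* had 1668, 104, 1877 and 14 counts in WT 1, WT 2, KO 1 and KO 2, and *Rny3* had 1853, 92, 2460 and 76, so that KO 1 was high as well. No order of the libraries was thus common to the whole list. Without WT 1, the log2 fold changes in edgeR were 3.44 for *Rny1*, 4.04 for *Rny3*, −0.51 for *Rn7sk*, −0.77 for *Rpph1* and −0.17 for *Gm26917*. For both Y RNAs the rise rested on KO 1. KO 2 lay below WT 2, with 1.54 against 10.2 CPM for *Rny1* and 8.37 against 9.01 CPM for *Rny3*.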

How the data were processed

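RNA of 4 libraries (WT 1, WT 2, KO 1 and KO 2) was analysed. The values that the authors deposited are unnormalized counts of reads on each Ensembl gene, with a separate list for every library. The submitters' processing notes name CASAVA 1.8.2, STAR 2.5.2a, featureCounts 1.5.0-p1 and mm10/GRCm38. The annotation release, strand setting and treatment of reads with several alignments or overlapping genes are not given in the sources used here, and they can move counts between mitochondrial genes, their opposite strand and nuclear copies.

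Genotype and replicate numbers came from the sample titles. Of 55573 gene identifiers, 55480 matched GENCODE M21, which supplied names, positions and sequences. Genes passing edgeR's expression filter (16832) were normalized by TMM and tested with the quasi-likelihood test of edgeR 4.0.16 (limma 3.58.1, R 4.3.3), fitting genotype alone. P-values were adjusted by Benjamini-Hochberg over all tested genes, and an adjusted p under 0.05 was called changed. CPM used TMM-scaled library sizes, in which the factors ranged from 0.903 to 1.05. Shares and ratios were compared by exact permutation tests over libraries, two-sided. Nuclear copies were sought by BLAST 2.17.0 of the mitochondrial genes against annotated transcripts, and sequence outside them was not searched.

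All mitochondrial genes could be named, and of a gene list its called genes with the highest and the lowest fold change. Any other gene was named with its values in view. The genes and lists were chosen with earlier results of these data known. The *Prorp*, *Rn45s* and *Rn18s-rs5* symbols found no match. Alternatives were DESeq2 1.42.0, limma-voom, other scalings, filters and thresholds, the replicate number as a block, mitochondrial genes left out of library sizes, and each library left out. The edgeR, DESeq2 and limma-voom fits were tried on simulated counts. These had the same spread in all libraries, whereas the WT pair here differed more than the KO pair. Precision was limited by 2 libraries per genotype, and by counting error for the tRNAs.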

Additional observations from a re-analysis of the deposited data

How the results depend on the processing

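With 2 libraries per genotype, calls on mitochondrial genes moved with almost every choice. Of the 37 genes, 1 changed with all libraries; 2 did with upper quartile scaling, 4 with library size only, 4 at an adjusted p under 0.1, 12 without a filter, and 0 in limma-voom or under a minimum of 10 counts per library, which left *mt-Te* and *mt-Tp* untested. All these calls were lower in KO, and the cause of these shifts was not tested. Leaving out one library gave 0 to 10 calls, of which 2 higher and 3 lower without WT 1. Over all genes, 1329 changed, against 2363 without a filter (1790 higher, 573 lower), 883 under that minimum, and 726 to 4299 with one library left out (2514 higher and 1193 lower without WT 1, 2155 higher and 2144 lower without WT 2). Upper quartile scaling gave 1489, library size only 1791 and an adjusted p under 0.1 1956.

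The replicate block gave 5 mitochondrial calls, all lower, namely *mt-Te* and, not called without it, *mt-Nd1* (adjusted p = 0.00296), *mt-Co1* (0.00128), *mt-Nd6* (0.000523) and *mt-Nd2* (0.0324), and 2244 genes in all (1625 higher, 619 lower). The labels link the libraries by number alone. Deviations of same-numbered libraries correlated at 0.183 across genes, and both Y RNAs were high in the libraries numbered 1, but with 2 pairs this is a hint from the data, not a pairing by design.

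Of 141 values of single genes under alternatives, 100 kept direction and side of the threshold, 29 passed it there alone, 4 lost it and 8 reversed. Over the fits with one library left out, log2 fold changes ran from −2.01 to 1.14 for *mt-Rnr1*, −2.13 to 0.47 for *mt-Rnr2*, −1.28 to 0.23 for *mt-Nd4*, −1.36 to 0.24 for *mt-Nd5*, −1.27 to 0.28 for *mt-Cytb* and −1.65 to 0.65 for *mt-Tp*, which was 0.021 with library size only. KO minus WT ran from −6.34 to 0.802 percentage points for the rRNA share, −0.519 (without WT 2) to −0.0617 (without WT 1) for the mRNA share, which was −0.29 with all libraries, −0.00167 to 3.44e-05 for the tRNA share and −3.45 to 2.77 for the ratio of rRNA to mRNA counts; the rRNA and tRNA shares reversed without WT 1, and the ratio without WT 1 (2.77) or KO 1 (0.258).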

Other observations

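The high mitochondrial rRNA of WT 1 was accompanied by a small set of nuclear genes. Among tested genes with at least 100 CPM in WT 1 and at least 3 times the level of each other library, a rule chosen after the values were seen, 4 genes stood beside *mt-Rnr1*, *mt-Rnr2* and *mt-Nd2*. *Lars2*, which encodes the leucyl-tRNA synthetase of mitochondria, had 57342 counts in WT 1, 370 in WT 2, 932 in KO 1 and 623 in KO 2. *Gm15564*, annotated as an antisense RNA, had 32108, 146, 185 and 147 counts, which in CPM was 181 times the next highest library. The rRNA gene *CT010467.1* had 62435, 9585, 11236 and 12811 counts, and *Mir6236* had 16686, 2053, 3760 and 4022. None of these 4 matched a mitochondrial gene over 100 bases at 95% identity, and none was called between KO and WT in edgeR with all libraries (adjusted p between 0.0799 and 0.353). Matches of these 4 to each other or to rRNAs of nuclear genes were not sought. Whether the counts on *Lars2* come from its mRNA was thus not tested. Without WT 1, *Lars2* was higher in KO (log2 fold change 1.30, adjusted p = 9.75e-07).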
